A study of Mus musculus with 4 samples.

Results

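Myosin heavy chains were followed in single myogenic progenitors (MPs) of regenerating mouse muscle. The members were the 8 genes Myh3, Myh8, Myh7, Myh2, Myh1, Myh4, Myh9 and Myh10, taken by symbol from the 25827 genes listed in every library. The 4 libraries held MPs sorted from tibialis anterior (TA) muscle as α7-integrin+ CD45- CD31- Sca1- cells, on day 6 after an injection of cardiotoxin (CTX), a snake toxin that destroys muscle fibers. Controls were 2 libraries of Pax7Cre mice, which carry the Cre recombinase and are labelled WT. The other 2 libraries were from miR-501KO mice (Pax7CremiR-501fl/Y), in which Cre removes the precursor of the microRNA miR-501. All mice were 12 weeks old and had received CTX, and the study's methods give them as male. Cre is driven by the Pax7 promoter and needs no inducer, so the deletion precedes the injury, and cells outside the Pax7 lineage keep the gene. Each library pooled 3 mice, so the spread between mice cannot be seen, and replicates 1 and 2 of both groups came from 2 separate runs. The library was the replicate in every test.

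A class II myosin pairs heavy chains, which carry the motor head and the rod, with essential and regulatory light chains. In muscle, heavy chains assemble into the thick filament of the sarcomere, and the isoform sets how fast a fiber shortens. The embryonic chain Myh3 and the perinatal chain Myh8 come up transiently in development and again in regenerating fibers. Adult fibers use the slow chain Myh7 or a fast chain, Myh2 (type IIa), Myh1 (type IIx) or Myh4 (type IIb), and the TA is a mostly fast muscle. Myh9 and Myh10 encode non-muscle myosins IIA and IIB, which drive contraction of the cell cortex, migration and cytokinesis in most cell types.

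Of 16519 barcodes in the files, 10450 had at least 5000 unique molecular identifiers (UMIs, 1 per captured RNA molecule) and 1000 genes. They numbered 1829 to 3439 per library, with a median depth of 25254 to 34579 UMIs. Between libraries, 10 cell barcodes were shared. Although the sort was set against blood and vessel cells, 341 macrophage-like and 264 mural-like cells were found, beside 195 Schwann-like cells. miR-501KO replicate 1 stood apart from the rest. Of its cells, 853 (30.1%) fell in clusters in which over 90% of the barcodes came from 1 library, against 1, 2 and 40 cells in the others. Of those 853 cells, 837 were Myog+, so values in Myog+ cells are given with and without such clusters where it matters. No row is listed for miR-501 itself, so the deletion was not checked here.

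The 5 sarcomeric genes Myh3, Myh2, Myh1, Myh4 and Myh8 lie in this order on the plus strand of chromosome 11, Myh10 lies farther along it, Myh7 is on chromosome 14 and Myh9 on chromosome 15. RefSeq promoters (GRCm38.p6) were matched for all 8 members and read over the 250 bases before the start. The promoters of Myh2, Myh1, Myh4 and Myh8 share 2 runs of letters. They are shown because the calls of these 4 neighbours differed in the comparison of Myog+ cells below. Myh8 and Myh1 were called higher, Myh4 was not called and Myh2 was not tested. Capitals mark the shared runs TCAAATTAT and TTCTAATTATATCC.
Myh2 (chr11:67170848-67170921): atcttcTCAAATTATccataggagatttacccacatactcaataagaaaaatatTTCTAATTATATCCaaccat
Myh1 (chr11:67199880-67199961): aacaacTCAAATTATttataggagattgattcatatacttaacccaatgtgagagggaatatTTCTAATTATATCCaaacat
Myh4 (chr11:67237619-67237673): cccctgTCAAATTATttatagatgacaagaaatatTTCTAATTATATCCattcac
Myh8 (chr11:67277014-67277089): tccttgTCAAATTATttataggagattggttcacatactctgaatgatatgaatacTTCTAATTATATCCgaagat
These runs were picked as the longest, and the next longest apart from it, that the 4 promoters share. Their counts over all promoters are therefore a description and no test. On either strand, the run of 14 letters was found in 4 (0.0122%) of 32851 promoters of the same length, those of these 4 genes. The run of 9 letters was found in 57 (0.174%), these 4 among them. Neither run was found in the windows of Myh3, Myh7, Myh9 and Myh10. The last 200 bases before the start of Myh3 and of Myh9, the members with the most UMIs of their kind, are shown beside each other. Capitals mark an E-box (CANNTG, the letters bound by Myog and other myogenic factors) and TATAAA, which for Myh9 is on the other strand.
Myh3 (chr11:67078100-67078299, plus strand): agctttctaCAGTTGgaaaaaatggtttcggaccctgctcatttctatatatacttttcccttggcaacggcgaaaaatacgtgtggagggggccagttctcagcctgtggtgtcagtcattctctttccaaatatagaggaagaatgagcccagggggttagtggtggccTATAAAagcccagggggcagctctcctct
Myh9 (chr15:77842176-77842375, minus strand): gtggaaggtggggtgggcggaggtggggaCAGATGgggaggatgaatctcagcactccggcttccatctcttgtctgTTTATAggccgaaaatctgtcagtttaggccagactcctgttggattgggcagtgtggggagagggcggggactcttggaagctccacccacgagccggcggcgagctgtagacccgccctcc
An E-box was found in 66.2% and TATAAA in 12.4% of all promoters, so the match of an E-box is a common one. The GC content was 49.2% for Myh3, between 36% and 42.4% for Myh8, Myh2, Myh1 and Myh4, 62.4% for Myh9 and 62.8% for Myh10, against a median of 52.4% over all promoters. The deleted precursor yields the 2 mature microRNAs below, with the seed (bases 2 to 8) in capitals.
miR-501-3p: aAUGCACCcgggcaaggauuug
miR-501-5p: aAUCCUUUgucccugggugaaa
In GENCODE vM21 transcripts, a match to the 3p seed (GGTGCAT) or the 5p seed (AAAGGAT) was found after the stop codon in 0 of the 8 members, against 5.46% and 10.3% of 20583 genes. That stretch was only 26 to 151 bases long in the sarcomeric members, and 1312 and 1553 bases in Myh9 and Myh10. The shares of all genes were not matched for length, and at such shares 0 of 8 is a common outcome. Over the whole transcript, Myh1 alone held matches, 1 to each seed.

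Among sarcomeric chains, Myh3 gave by far the most RNA. Over all 10450 cells it had 45756 UMIs in 2120 cells, Myh8 8140 UMIs in 675 cells, Myh1 4882 in 972 cells and Myh4 1774 in 486 cells. Myh7 had 180 UMIs in 64 cells and Myh2 73 UMIs in 28 cells, too few for most comparisons. A UMI stands for the 3′ end of 1 molecule whatever its length, so these totals need no correction for length. Reads of Myh1, Myh2 and Myh4 may still have been split or lost, since their 3′ ends share sequence, as given below. The non-muscle chains were broad instead, with 89005 UMIs of Myh9 in 92.2% of cells and 12969 UMIs of Myh10 in 45.1% of cells.

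The sarcomeric chains were carried by few cells. The 10 cells with the most UMIs held 13.95% of all Myh3 UMIs, 41.4% of Myh8, 43.7% of Myh1, 55.1% of Myh4, 58.3% of Myh7 and 75.3% of Myh2, but 1.54% of Myh9 and 1.66% of Myh10. A single cell of miR-501KO replicate 1 held 993 Myh1 UMIs, 20.3% of all, with 206 of Myh3 and 540 of Myh8. A cell of Pax7Cre replicate 2 held 856 Myh8 UMIs (10.5%), and another of that library held 425 Myh4 UMIs (24.0%). Values of Myh8, Myh1, Myh4, Myh7 and Myh2 therefore rest on a handful of cells, and no doublet caller was run. In the last 400 bases of their transcripts, Myh1 and Myh2 share 18.2% of all 60-base words with each other and Myh4 shares 7.04% with Myh2, so reads of these 3 genes may have been split or lost. The other 5 members share none.

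The first comparison asked how the members differ between committed MPs and stem cells that have not yet committed. Every cell was thinned to 5000 UMIs. Cells with at least 1 UMI of Myog, which encodes the commitment factor myogenin, were called Myog+, and cells with Pax7, the stem cell factor, but no Myog were called Pax7+ Myog-. These gates use no heavy chain. Myog+ cells numbered 1154 and 464 in the Pax7Cre libraries and 1363 and 611 in the miR-501KO libraries, and Pax7+ Myog- cells 860, 600, 599 and 744 in the same order. Full UMI counts were summed per library and gate, given as CPM (the UMIs of a gene over all UMIs of the sum, scaled to the usual total), and tested with edgeR's quasi-likelihood test with the library as a block. Of 14025 genes tested, 46.5% were called at an adjusted p under 0.05, 23.6% higher and 22.9% lower in Myog+ cells. In this fit 4 of the 7 members tested were higher and 2 lower.

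The developmental chains rose most. Myh3 stood at 463, 242, 367 and 408 CPM in Myog+ cells, with Pax7Cre replicate 1 given first, then its replicate 2 and both miR-501KO replicates, and at 3.98, 1.73, 4.53 and 3.27 CPM in Pax7+ Myog- cells. The gates were far apart in every library, with a log2 fold change of 6.96 (SE 0.13, adjusted p = 2.74e-08). Myh8 stood at 56.5, 37.6, 66.0 and 59.9 CPM in Myog+ cells, against 0.873, 0.514, 1.47 and 0.905 CPM. Its rise was 6.06 on the log2 scale (SE 0.12, adjusted p = 2.74e-08), again with no overlap of the gates. Of Myog+ cells thinned to 5000 UMIs, 21.1%, 15.3%, 23.0% and 20.6% held a Myh3 UMI, so most Myog+ cells had none at that depth. In mural-like cells, which should lack the gene, the share was 1.52% (95% Wilson interval 0.591 to 3.83, counting error only) and in Pax7+ Myog- cells it was 2.10%, and the median depths before thinning were 28036.5, 19959.5 and 27387 UMIs in Myog+, mural-like and Pax7+ Myog- cells. The level of Myh3 in Pax7+ Myog- cells, 3.37 CPM over all libraries, was near the 2.81 CPM of mural-like cells. It was above the 2.32 CPM of Schwann-like cells and below the 6.91 CPM of macrophage-like cells. In the 547 cells with UMIs of both Pax7 and Myog it was 83.2 CPM.

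The slow chain and the fast chains did not move as a group. Myh7, the slow and cardiac β chain, stood at 1.36, 0.457, 2.08 and 1.15 CPM in Myog+ cells, while Pax7+ Myog- cells held 4 Myh7 UMIs in all, 0, 1, 2 and 1 per library. It rose by 4.76 (SE 0.51, adjusted p = 0.00014), from a very low level. Myh1 stood at 34.6, 9.65, 41.8 and 22.8 CPM in Myog+ cells and at 1.21, 1.87, 5.02 and 2.51 CPM in Pax7+ Myog- cells. The gates did not overlap, and the log2 fold change was 3.54 (SE 0.30, adjusted p = 3.87e-05). Myh4, the chain of the fastest fibers and the neighbour of Myh1 in the genome, was not called (log2 fold change -0.18, SE 0.45, adjusted p = 0.766). It stood at 4.199, 0.711, 3.46 and 2.11 CPM in Myog+ cells and at 1.52, 2.85, 4.31 and 4.52 CPM in Pax7+ Myog- cells, so the gates overlapped and Myog+ cells were higher in 1 of 4 libraries. Myh2 failed the filter on low counts and was not tested, with 0.197 to 0.377 CPM in Myog+ cells and 0 to 0.1401 CPM in Pax7+ Myog- cells.

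Both non-muscle chains were lower in Myog+ than in Pax7+ Myog- cells. Myh9 stood at 197, 189, 186 and 178 CPM in Myog+ cells and at 304, 259, 373 and 236 CPM in Pax7+ Myog- cells. It was lower in 4 of 4 libraries, with a log2 fold change of -0.47 (SE 0.10, adjusted p = 0.00444). Myh10 stood at 25.7, 28.5, 15.4 and 24.8 CPM in Myog+ cells and at 45.7, 54.9, 47.3 and 48.1 CPM in Pax7+ Myog- cells, with a log2 fold change of -0.93 (SE 0.11, adjusted p = 0.000208). Values of neither gene overlapped between the gates, and Myh9 stayed the more abundant of the pair in both. Without the clusters of 1 library the 7 log2 fold changes were 7.11 (Myh3), 6.25 (Myh8), 5.03 (Myh7), 3.79 (Myh1), -0.35 (Myh4), -0.41 (Myh9) and -0.82 (Myh10). For Myh3 the mean level differed 109-fold between the gates, while the share of cells with a UMI at equal depth was 21.0% against 2.10% over all libraries.

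**Figure D1:**
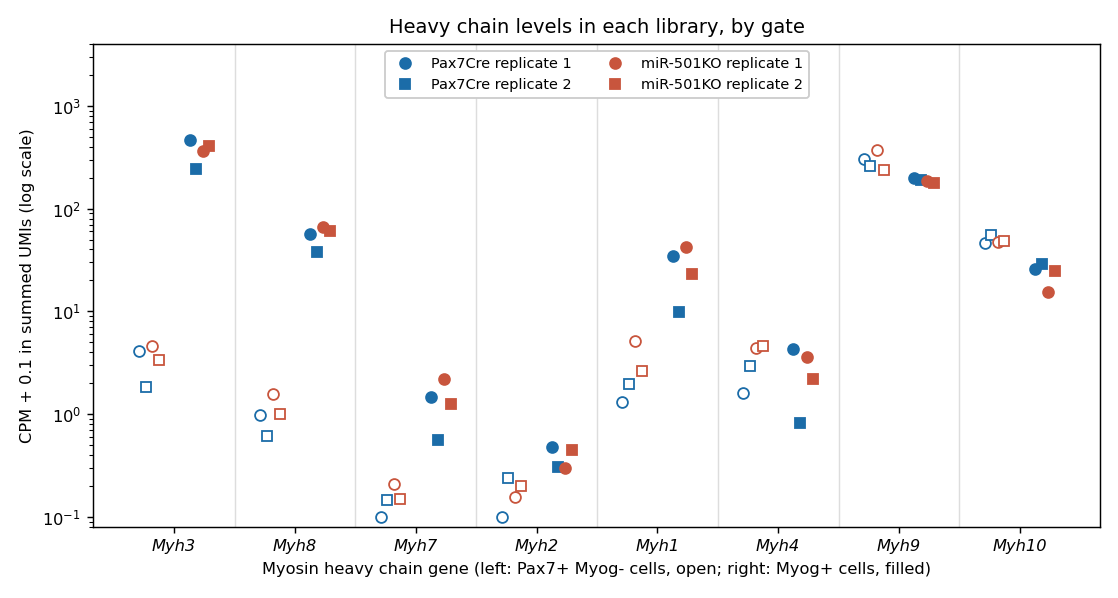
CPM of each heavy chain plus 0.1 (log axis) in the summed UMIs of each library, with open points for Pax7+ Myog- cells on the left and filled points for Myog+ cells on the right of each gene, circles and squares for replicates 1 and 2, blue for Pax7Cre and red for miR-501KO. Myh3, Myh8, Myh7 and Myh1 are higher in all 4 Myog+ points, Myh9 and Myh10 are lower in all 4, and the Myh4 points of the gates overlap.

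The partners of the heavy chains were read from a list of 37 genes in 6 groups, of which 31 were tested. In the same comparison 18 were higher and 3 lower in Myog+ cells, with a median log2 fold change of 0.88 against -0.017 over all genes. Several of these genes also mark the committed state, so they are no independent evidence of it. Of the light chains, 3 of 4 essential ones tested were higher, led by the embryonic and atrial chain Myl4 (4.52, SE 0.11) and the fast chain Myl1 (3.38, SE 0.18). Of 5 regulatory light chains 4 were higher, led by the fast chain Mylpf (3.66, SE 0.20) and the slow and ventricular chain Myl2 (2.55, SE 0.69). Among 5 chaperones 2 were higher, Unc45b (6.77, SE 0.14), which folds the myosin head in muscle, and the methyltransferase Smyd1 (3.94, SE 0.13). Unc45a and the general chaperones Hsp90aa1 and Hsp90ab1 were not called.

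Of 8 thick filament genes, 6 were higher, led by the myosin binding protein Mybph (6.86, SE 0.20) and the M-band protein Myom3 (5.52, SE 0.25). Mybpc1, the slow myosin binding protein C, was lower (-0.57, SE 0.12, adjusted p = 0.00437). Of 7 genes of kinases and the phosphatase that act on the light chains, 2 were higher, Mylk4 (6.15, SE 0.21) and Ppp1r12b (0.49, SE 0.15), 2 were lower, among them the skeletal light chain kinase Mylk2 (-1.17, SE 0.15), and 3 were not called. Of the other heavy chains, 2 of 6 passed the filter and the non-muscle chain Myh14 was higher (1.72, SE 0.33, adjusted p = 0.00334), in the opposite direction to Myh9 and Myh10.

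To follow the chains through commitment, 2743 Myog+ cells outside the clusters of 1 library were placed in 5 bins by the UMIs of 11 light chain and thick filament genes per 10000 UMIs of the cell. The bins held 716, 1103, 578, 239 and 107 cells, from under 5 to 320 or more. These values are a description, since both axes are read from the same cells and depth. Pooled over libraries, Myh3 went from 3.59 CPM in the lowest bin through 12.8, 133 and 1606 to 4323 CPM in the highest. Myh8 went from 0.507 through 0.828, 6.98 and 83.1 to 997 CPM. For both chains the larger part of the range lay between the last 2 bins. The share of cells with a Myh3 UMI at 5000 UMIs was 2.23%, 5.44%, 29.8%, 82.0% and 99.1% from the lowest bin to the highest.

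The adult chains rose along this order less evenly. Myh1 stood at 1.98, 4.12, 19.5, 42.0 and 431 CPM, above Myh8 in the first 3 bins and below it in the last 2. In the third bin 8.30% of cells held a Myh1 UMI at 5000 UMIs and 2.25% a Myh8 UMI. In the highest bin its libraries ranged from 24.6 CPM in the 10 cells of Pax7Cre replicate 2 to 776 CPM in the 36 cells of miR-501KO replicate 1, whose top cell alone held 993 UMIs. Myh7 reached 6.57 and 13.8 CPM, Myh4 7.05 and 23.2 CPM and Myh2 0.381 and 4.33 CPM in the last 2 bins, from at most 0.645 CPM in the lowest. Myh9 fell from 216 CPM in the lowest and 233 CPM in the second bin to 198, 126 and 94.9 CPM, and Myh10 from 33.0 and 31.9 to 18.9, 10.2 and 10.4 CPM. The non-muscle chains thus stood lowest in the bins where Myh3 and Myh8 stood highest, at 85.2 to 111 CPM for Myh9 in the 4 libraries of the highest bin.

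**Figure D2:**
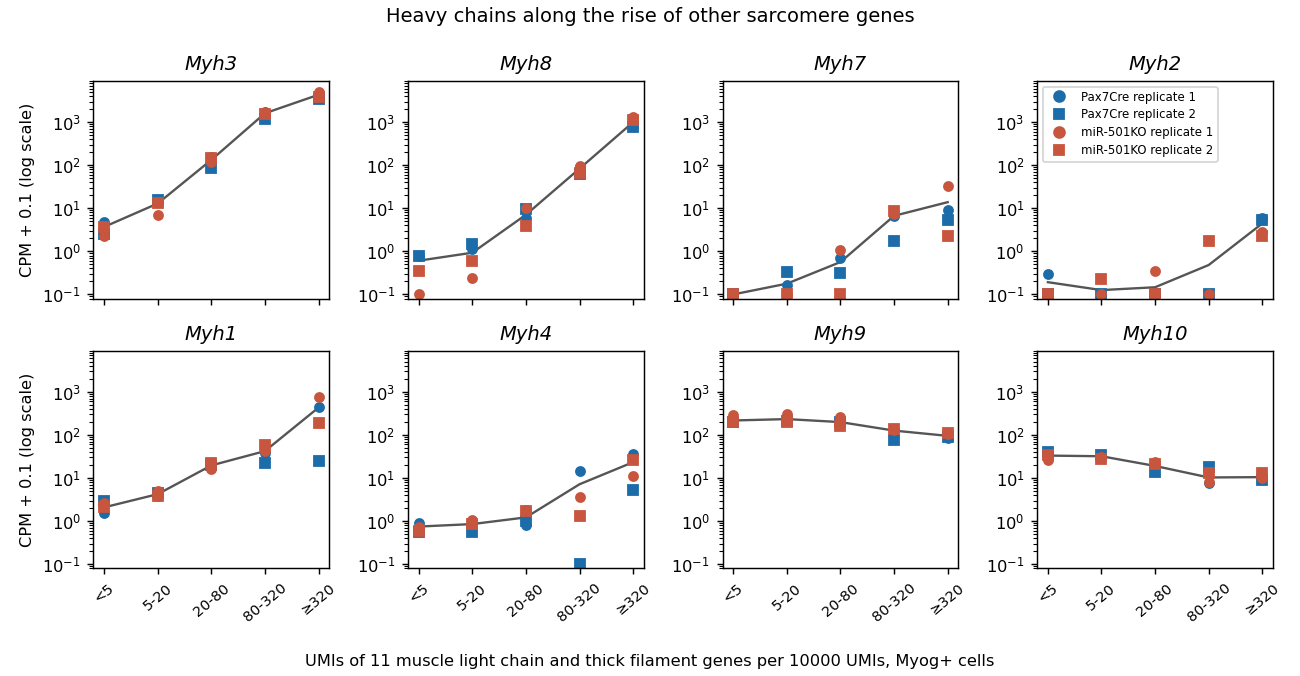
CPM plus 0.1 (log axis) of the 8 heavy chains in Myog+ cells binned by the UMIs of 11 muscle light chain and thick filament genes per 10000 UMIs, with 1 point per library (circles and squares for replicates 1 and 2, blue for Pax7Cre and red for miR-501KO) and a line for all libraries pooled. The line rises from 3.59 to 4323 CPM for Myh3 and from 0.507 to 997 CPM for Myh8, and falls from 216 to 94.9 CPM for Myh9.

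Cells were also grouped by clustering, from which all Myh genes were left out, and clusters were named from marker lists without heavy chains. Levels by cluster are descriptions with no test. The committed-like class held 2 clusters. Cluster 9 (375 cells, 171, 43, 95 and 66 per library) was led by Myom2, Mybph, Npnt and Tnnc1. It carried 89.3% of all Myh3 UMIs, 92.2% of Myh8, 78.9% of Myh7 and 58.1% of Myh1. Myh3 stood there at 2245, 1675, 2780 and 2132 CPM, and 97.6% of its cells held the RNA. Myh8 stood at 288, 696, 512 and 350 CPM and Myh1 at 150, 43.7, 288 and 106 CPM, both with more spread between libraries than Myh3. Single cells weigh on this spread. In cluster 9, 1 cell held 856 of the 1959 Myh8 UMIs of Pax7Cre replicate 2. Another held 993 of the 1205 Myh1 UMIs of miR-501KO replicate 1. Cluster 4 (1001 cells, led by Cnr1 and Myog) had Myh3 at 65.8, 45.3, 61.1 and 100.2 CPM and 5.02% of all Myh3 UMIs, with Myh8 at 0.691 to 5.09 CPM. The Myh3 ranges of clusters 9 and 4 did not overlap, nor did that of cluster 4 overlap any class ranked below it that was found in several libraries.

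Cluster 6 held 659 cells, all from miR-501KO replicate 1, and stayed unnamed because markers of both myofibers and macrophages were raised in it. Its Myh3 level of 63.1 CPM was near the 67.2 CPM of cluster 4, but it was spread in another way. In cluster 6, 465 of 659 cells held a Myh3 UMI and none held more than 8, while in cluster 4 the RNA was found in 436 of 1001 cells with up to 112 UMIs in a cell. The median depths were 19689 and 32173 UMIs. Myh8 stood at 10.5, Myh1 at 9.17 and Myh4 at 5.004 CPM in cluster 6, against 2.31, 11.7 and 0.907 CPM in cluster 4. The summed CPM of 10 myofiber markers was 2063 in cluster 6 and 700.1 to 794 in cluster 4. The part of free RNA or of mixed droplets in these values was not tested.

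Cluster 19 was the small group in which adult fast chains led. It held 34 cells, 2, 19, 7 and 6 per library, and was led by Tcap, Myoz1, Tceal7 and Pvalb. It had 10 of 10 myofiber markers raised, but stayed unnamed as too small. Its median mitochondrial share per library was 0.0218% to 0.158%, against 4.82% to 6.40% in cluster 9. Depth reached 362241 UMIs in a barcode, against 157790 in cluster 9. Whether these barcodes are single cells was not tested. The cluster carried 906 Myh4 UMIs (51.1% of all), 37 Myh2 UMIs (50.7%) and 724 Myh1 UMIs (14.8%). Of the Myh4 UMIs, 425 were in 1 barcode of Pax7Cre replicate 2 with 353032 UMIs in all. In the 19 cells of Pax7Cre replicate 2, Myh4 stood at 453, Myh1 at 346, Myh8 at 45.8, Myh2 at 25.6, Myh3 at 23.3 and Myh9 at 5.26 CPM. The 7 cells of miR-501KO replicate 1 held 477 CPM of Myh4, 245 of Myh1, 64.1 of Myh8 and 14.8 of Myh3, and the 6 cells of miR-501KO replicate 2 held 59.5 of Myh4, 372 of Myh1, 104 of Myh8 and 34.7 of Myh3. In cluster 9 Myh3 came first instead, and Myh4 stood at 18.4, 18.5, 6.68 and 6.73 CPM. Myh7 had no UMI in cluster 19, which allows up to 1.35 CPM over its 4 libraries.

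Outside clusters 9 and 19, quiescent-like cells had the highest mean level of Myh4 among the named classes. In the 2078 quiescent-like cells it stood at 5.59, 5.62, 7.74 and 8.61 CPM, in 189 cells with at most 13 UMIs each, and these cells carried 18.9% of all Myh4 UMIs. In the 2539 cycling-like cells it stood at 0.506, 0.464, 0.976 and 1.03 CPM, with no overlap. At 5000 UMIs, 1.01%, 2.41%, 3.47% and 4.04% of quiescent-like cells held a Myh4 UMI. Over all libraries the share was 2.69% (95% Wilson interval 2.08 to 3.48) in quiescent-like and 0.354% (0.187 to 0.672) in cycling-like cells. Of cells that should lack the chain, Schwann-like cells gave 2.56% (1.10 to 5.86) and macrophage-like cells 0% (up to 1.11), at median depths before thinning of 23045, 44536, 11591 and 18842 UMIs in the same order. The levels of Schwann-like cells (0 to 11.1 CPM) reached into the range of quiescent-like cells. Those of macrophage-like (0 to 5.32 CPM) and mural-like cells (0 to 1.13 CPM) stayed below it. The summed myofiber markers stood at 438, 433, 605 and 744 CPM in quiescent-like and at 432, 373, 429 and 453 CPM in cycling-like cells. Within every library the markers were higher in quiescent-like cells, as Myh4 was. Their ranges over the libraries overlapped, while those of Myh4 did not. In Pax7+ Myog- cells of every library, 0 of the 10 markers were at 0. Their part in the Myh4 level was not tested.

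The non-muscle chains ordered the cells differently. Myh9 was highest in mural-like cells, at 435 ± 99.4 CPM (SD over 4 libraries), then in cluster 1 at 355 ± 78.9 CPM, an unnamed group of 2100 cells led by Spp1, Mme and Ass1, and in cycling-like cells at 295 ± 49.0 CPM. Macrophage-like cells (208 ± 13.9), cluster 14 (203 ± 33.8), quiescent-like cells (191 ± 49.3), cluster 4 (168 ± 16.96) and Schwann-like cells (144 ± 68.1) followed, and cluster 9 stood at 91.5 ± 18.3 CPM. Of the neighbours in this order, cycling-like and macrophage-like cells did not overlap, nor did cluster 9 and the 5.26 CPM of cluster 19, while all other neighbours overlapped.

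Myh10 was highest in cluster 14, at 105 ± 23.6 CPM. That cluster held 108 cells led by Thbs4, Mfap5 and Lum, with fibroblast and tenocyte markers raised together. Cycling-like cells followed at 60.6 ± 6.13 CPM, and carried 57.7% of all Myh10 UMIs and 41.0% of all Myh9 UMIs. Cluster 1 (33.0 ± 3.02), Schwann-like (31.8 ± 6.89) and quiescent-like cells (29.4 ± 2.41) came next and overlapped each other. Cluster 4 stood at 14.9 ± 0.319 CPM, macrophage-like cells at 11.6 ± 3.15, cluster 9 at 8.64 ± 2.56 and mural-like cells at 7.37 ± 4.69 CPM. Mural-like cells were thus first for Myh9 and last for Myh10 among the classes listed here, while cluster 6 stood lower still at 5.32 CPM of Myh10. Cluster 19, with 15 Myh10 UMIs, stood at 6.75 CPM over its libraries. In the 19 cells of Pax7Cre replicate 2 it stood at 8.27 CPM, above the mean of mural-like cells. Ranges did not overlap between cluster 14 and cycling-like cells, between cycling-like cells and cluster 1, and between quiescent-like cells and cluster 4.

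**Figure D3:**
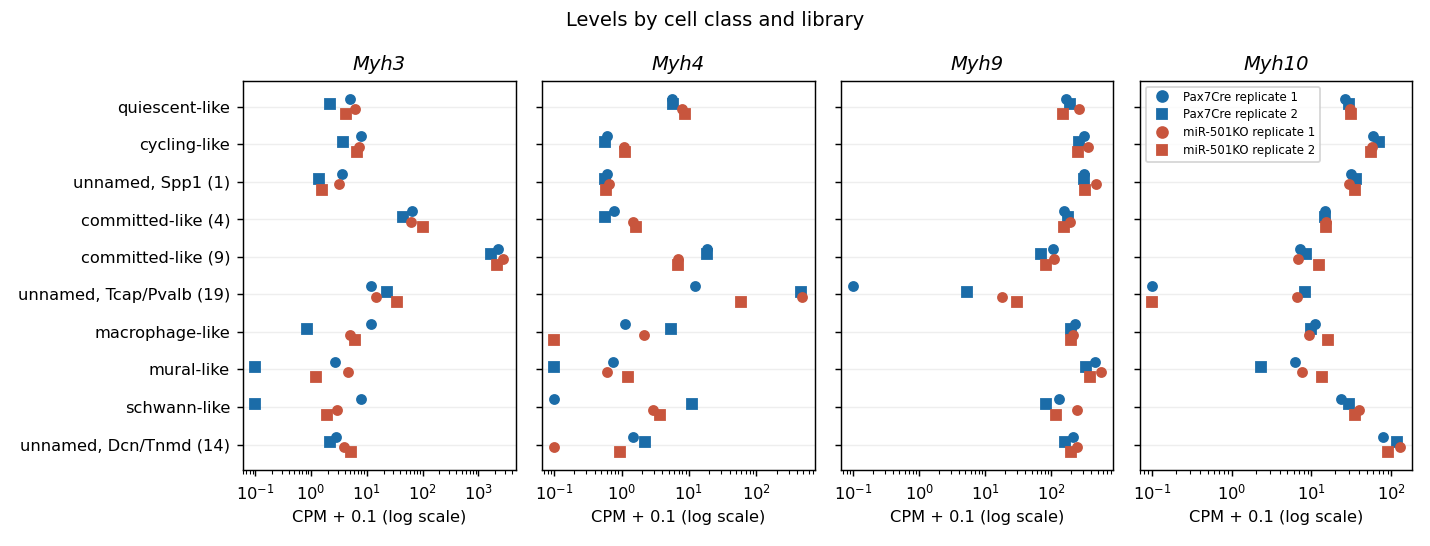
CPM plus 0.1 (log axis) of Myh3, Myh4, Myh9 and Myh10 in 10 cell classes, with 1 point per library in blue for Pax7Cre and red for miR-501KO and the cluster number in brackets. Myh3 stands apart in cluster 9 at 1675 to 2780 CPM, Myh4 in cluster 19, Myh9 is lowest in clusters 9 and 19, and Myh10 is highest in cluster 14.

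Developmental chains made up most of the sarcomeric heavy chain RNA of Myog+ cells. Of the UMIs of the 6 sarcomeric chains, Myh3 gave 82.7%, 83.3%, 76.4% and 82.5% in the 4 libraries and Myh8 10.1%, 13.0%, 13.7% and 12.1%. Myh1 gave 6.18%, 3.32%, 8.71% and 4.62%, Myh4 0.245% to 0.750%, Myh7 0.157% to 0.433% and Myh2 0.0410% to 0.0710%. In cluster 9 the share of Myh8 was 28.6% in Pax7Cre replicate 2 and 10.6% to 14.2% in the other 3 libraries, and 1 cell held 856 of the 1959 Myh8 UMIs of that library there. In cluster 19 the adult fast chains gave 95.7%, 92.3%, 90.1% and 75.7% of 46, 1189, 487 and 115 UMIs. By summed UMIs Myh4 came first in Pax7Cre replicate 2 (50.7%) and miR-501KO replicate 1 (59.5%), and Myh1 in the others (87.0% and 65.2%). This order rests on few cells, since 1 cell held 425 of the 603 Myh4 UMIs of Pax7Cre replicate 2 there. Among cluster 19 cells with at least 10 sarcomeric heavy chain UMIs, Myh1 led in 5 and Myh4 in 1 of miR-501KO replicate 1. In Pax7Cre replicate 2 Myh1 led in 4 and Myh4 in 5.

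**Figure D4:**
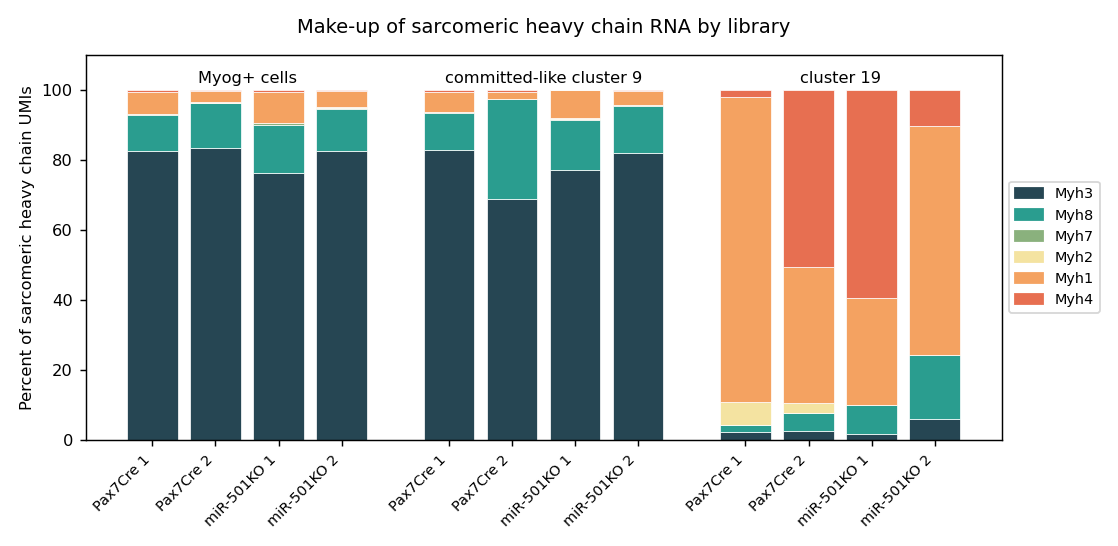
Percent of sarcomeric heavy chain UMIs given by each of 6 chains (stacked bars to 100, 1 bar per library) in Myog+ cells, in committed-like cluster 9 and in cluster 19. Myh3 fills 76.4% to 83.3% of the bars of Myog+ cells, and Myh1 and Myh4 together fill most of those of cluster 19.

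Within single cells Myh3 led in most. Of 415 cells with at least 10 sarcomeric heavy chain UMIs, Myh3 was the most abundant chain in 365 (88.0%), in 157 of 165, 40 of 58, 96 of 109 and 72 of 83 cells of the 4 libraries. Myh1 led in 23 cells, 11 of them in cluster 19, Myh4 in 13, Myh8 in 11 and Myh2 in 1, Myh7 led in none, and 2 cells were tied. In cluster 9, where 97.6% of all cells held Myh3, nearly every cell with another chain held it as well. Myh8 was seen in 63.7% and Myh1 in 40.3% of its cells. Myh1 was seen in 24 of 34 cells with Myh7 (70.6%, 95% Wilson interval 53.8 to 83.2) and in 26 of 39 cells with Myh4 (66.7%, 50.98 to 79.4), and Myh8 in 34 of 39 cells with Myh4 (87.2%, 73.3 to 94.4). These shares were read from full counts, so they also move with the depth of a cell.

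The genes most like each member were read over 43 sums of a cluster in a library, by Pearson's r of log2(CPM + 1) among 8478 genes, as a description of sums that share libraries and depth. For Myh3 they were Unc45b (0.95), Lmod3 (0.94), a thin filament nucleator, and Trim63 (0.94), a muscle ubiquitin ligase. For Myh8 they were the slow troponin Tnnc1 (0.94), Actn2 of the Z-disc (0.93) and Itgb1bp2 (0.92), and for Myh1 Actn2 (0.93), Lmod2 (0.91) and Myom2 (0.91). Myh9 was most like Fnbp1l (0.86), Rell1 and Chst2 (both 0.85), and Myh10 most like the monocarboxylate carrier Slc16a1 (0.90), the chromosome maintenance gene Smc6 (0.85) and Pitrm1 (0.84). Myh7, Myh2 and Myh4 were under a mean of 10 CPM and were left out. Between members r was 0.89 for Myh3 and Myh8 and 0.88 for Myh3 and Myh1. It was lower for Myh3 and Myh4 (0.29) and for the non-muscle pair (0.37), and it was -0.43 for Myh3 with either Myh9 or Myh10.

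The second comparison was that of the genotypes, and asked for an effect of the miR-501 deletion on heavy chain RNA. No member was called in any of the 3 edgeR fits of miR-501KO against Pax7Cre. In all cells 0 of 15725 genes (0%) were called, with 440 at an unadjusted p under 0.05 and 12 called by DESeq2. Myh3 stood at 164 and 74.1 CPM in Pax7Cre and 158 and 114 CPM in miR-501KO (log2 fold change 0.16, SE 0.38), so the groups overlapped and the replicates of Pax7Cre differed more than the groups. Myh8 gave -0.09 (SE 0.25), Myh7 1.07 (SE 0.70), Myh1 0.34 (SE 0.32), Myh4 -0.52 (SE 0.70), Myh9 0.04 (SE 0.14) and Myh10 -0.19 (SE 0.14), and all adjusted p were 0.9998. Myh2 alone did not overlap, at 0.158 and 0.515 against 0.0942 and 0.136 CPM (log2 fold change -1.51, SE 0.68). For comparison, 25.3% of all genes tested did not overlap, and without the 34 cells of cluster 19 the Myh2 value was 0.27.

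In Myog+ cells 0 of 13968 genes (0%) were called by edgeR, with 581 at an unadjusted p under 0.05, 11 called by DESeq2 and 106 called with the run as a block. Myh3 stood at 463 and 242 CPM against 367 and 408 CPM (log2 fold change 0.21, SE 0.29, adjusted p = 0.862). Myh8, at 56.5 and 37.6 against 66.0 and 59.9 CPM, gave 0.50 (SE 0.22, adjusted p = 0.831). Myh10, at 25.7 and 28.5 against 15.4 and 24.8 CPM, gave -0.37 (SE 0.19, adjusted p = 0.831). The groups did not overlap for Myh8, Myh9 and Myh10, 3 of 7 members tested, against 35.8% of all genes, so this is a common outcome with 2 libraries a group. Myh7 gave 0.87 (SE 0.56), Myh1 0.62 (SE 0.56), Myh4 0.22 (SE 0.68) and Myh9 -0.01 (SE 0.15). The sign for Myh1 rested on 1 cell, since the value was -0.24 without the cell with the most Myh1 UMIs. Without the clusters of 1 library, miR-501KO replicate 1 stood at 646 CPM for Myh3, 117 for Myh8, 71.9 for Myh1, 254 for Myh9 and 24.0 for Myh10. The log2 fold changes were then 0.54 (Myh3), 0.86 (Myh8), 1.27 (Myh7), 1.01 (Myh1), -0.29 (Myh4), 0.13 (Myh9) and -0.18 (Myh10), and no member was called. Of the 3 members named above, Myh9 then overlapped between the groups, while Myh8 and Myh10 did not. The 71.9 CPM and 1.01 of Myh1 still included the cell with 993 Myh1 UMIs, which lay in cluster 9. That cell and those clusters were not left out together. The 11 macrophage markers stood at 448 and 240 against 1104 and 360 CPM in the same sums, with none at 0, and at 469 CPM in miR-501KO replicate 1 without the clusters of 1 library. The 12 committed-like markers stood at 17218 and 16030 against 11494 and 16807 CPM. Their part in the values of the members was not tested.

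In Pax7+ Myog- cells 6 of 13415 genes (0.0447%) were called, 5 higher (0.0373%) and 1 lower (0.00745%) in miR-501KO, and 64 were called with the run as a block. Myh1 and Myh4 came nearest among the members. Myh1 stood at 1.21 and 1.87 CPM in Pax7Cre and at 5.02 and 2.51 CPM in miR-501KO, from 32, 40, 92 and 50 UMIs. The groups did not overlap, with a log2 fold change of 1.24 (SE 0.35, adjusted p = 0.644 in edgeR). With the run as a block it was 1.20 and was called (adjusted p = 0.0281), although the difference within a run was 1.44 in the first and 0.29 in the second, on the scale of log2(CPM + 1). In miR-501KO replicate 1, a single quiescent-like cell held 45 of the 110 Myh1 UMIs of that class. Whether that cell lay in this gate was not read, and no fit was made without it. Without cluster 19, the gate held 598 instead of 599 cells in that library. Myh4 stood at 1.52 and 2.85 against 4.31 and 4.52 CPM, from 40, 61, 79 and 90 UMIs, with a log2 fold change of 0.99 (SE 0.30, adjusted p = 0.747), and was not called with the block. Schwann-like cells, which should lack both chains, held 3.69 to 7.25 CPM of Myh1 and 0 to 11.1 CPM of Myh4, from 16 and 15 UMIs in all. Macrophage-like cells held 1.12 to 3.24 CPM of Myh1 and 0 to 5.32 CPM of Myh4. In mural-like cells the ranges were 0.650 to 4.48 and 0 to 1.13 CPM. The 10 myofiber markers stood at 347 and 367 against 419 and 481 CPM in these sums. Their part was not tested.

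The other members gave 0.36 (Myh3, SE 0.34), 0.69 (Myh8, SE 0.46), 0.05 (Myh9, SE 0.18) and -0.12 (Myh10, SE 0.14) in Pax7+ Myog- cells, and Myh7 and Myh2 were not tested. Of the 6 members tested 3 did not overlap, against 27.3% of all genes. The interaction of gate and genotype (the effect in Myog+ minus that in Pax7+ Myog- cells) called 1 of 14025 genes (0.00713%), Apod, and no member. It was -0.18 for Myh3 (SE 0.25), -0.19 for Myh8 (SE 0.30), -0.73 for Myh7 (SE 1.32), -0.44 for Myh1 (SE 0.59), -0.61 for Myh4 (SE 0.87), -0.03 for Myh9 (SE 0.20) and -0.26 for Myh10 (SE 0.20). Of the partner genes, 31 were tested in all cells, in Myog+ cells and in the interaction and 26 in Pax7+ Myog- cells, and 0 were called in each. With 2 libraries a group, errors of this size leave sizable differences undetected for Myh7, Myh1 and Myh4, and a p that misses the threshold does not show that levels were equal.

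**Figure D5:**
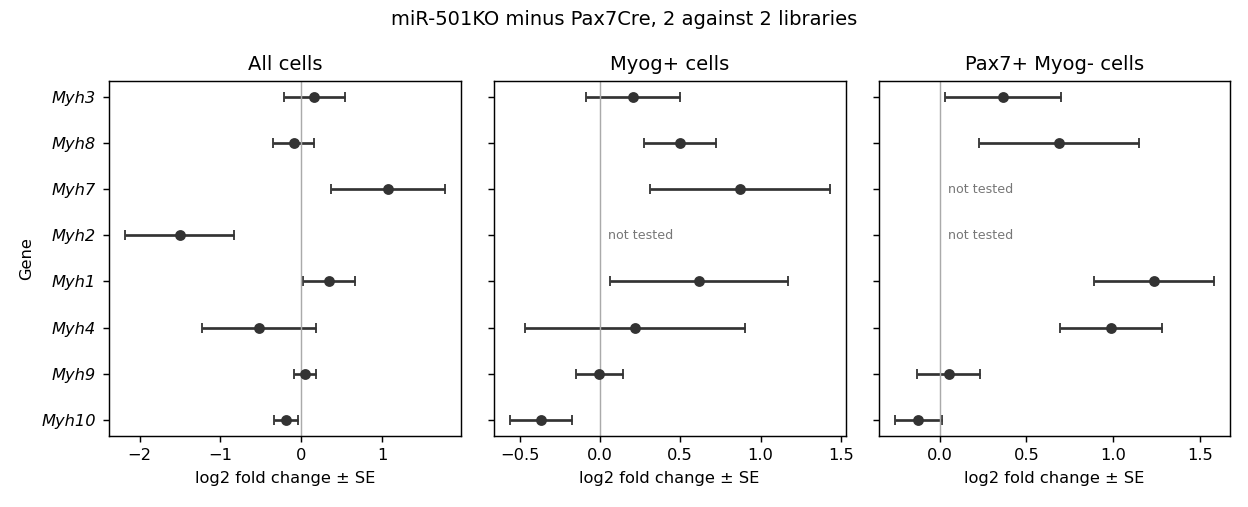
Log2 fold change of miR-501KO minus Pax7Cre with its SE for each heavy chain in all cells, Myog+ cells and Pax7+ Myog- cells, 2 libraries a group. Values lie between -1.51 (Myh2, all cells) and 1.24 (Myh1, Pax7+ Myog- cells), the narrowest bars are those of Myh9 and Myh10, and no point was called.

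Shares were compared over the 4 library values by an exact two-sided permutation test, whose smallest p is 0.333. The developmental share of sarcomeric UMIs in Myog+ cells was 92.8% (95% Wilson interval 92.4 to 93.1) and 96.2% (95.7 to 96.7) in Pax7Cre and 90.1% (89.6 to 90.5) and 94.7% (94.2 to 95.1) in miR-501KO. It was lower in miR-501KO in both runs, but the difference of -2.11 percentage points was smaller than the spread between the replicates of a group, which came from different runs (exact p = 0.667, a test that does not use the run). It was 0.599 without the cell with the most Myh1 UMIs. The share of cells with a Myh3 UMI at 5000 UMIs was 8.69% (7.80 to 9.68) and 4.70% (3.82 to 5.77) in Pax7Cre and 12.1% (10.9 to 13.3) and 6.90% (5.94 to 7.99) in miR-501KO. It was higher in miR-501KO in both runs, by 2.79 points on average, again less than the spread between replicates (exact p = 0.667). Without the clusters of 1 library the difference was 0.293 points, with 8.70% against 6.92% in run 1 and 4.65% against 7.02% in run 2, so the runs then differed in sign.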

How the data were processed

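Single-cell RNA was measured in 4 libraries made with 10x Genomics 3′ v3.1 chemistry, per the labels, and the authors deposited raw UMI counts per gene and barcode, with no normalization. The submitters' processing notes name Cell Ranger, Seurat and the build GRCm39. Per the file headers, Cell Ranger 6.0.2 was used, a version other than the one in the study's methods. The 8 members and all lists were chosen with earlier results of these data known.

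The minimum was 5000 UMIs and 1000 genes per cell. Counts scaled to 10000 per cell, without Myh genes, gave 2000 variable genes, 30 principal components and a graph of 15 neighbours, clustered by Leiden (scanpy 1.11.5, leidenalg 0.10.2) at resolution 0.5. A cluster of at least 50 cells was named when at least 3 markers of 1 of 13 lists were raised (1.5-fold and in 10% of cells) and no other list reached 0.5 of that share. No doublet caller was run. Removal of the 5% of cells with the most UMIs was tried instead.

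UMI counts summed per library were tested in edgeR 4.0.16 (R 4.3.3, limma 3.58.1) with TMM, filterByExpr and Benjamini-Hochberg adjustment over all genes, and a gene with an adjusted p under 0.05 was called. DESeq2 1.42.0 was an alternative. The test was checked on simulated counts. Partner genes are named for the comparison of gates, at most 2 per group and direction with the largest change among called genes, and likeness names 3 genes per member. A partner gene that this rule also names is not reported here. The counts of the 2 replicates of a group differed beyond sampling noise, with a chi-square over its degrees of freedom of 70.2 in Pax7Cre and 67.2 in miR-501KO.

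The labels place libraries of the same number in the same run. The run 1 minus run 2 difference correlated across genes between the groups at 0.0496 in all cells, 0.359 in Myog+ and -0.181 in Pax7+ Myog- cells. Shares carry 95% Wilson intervals, which hold counting error alone, and where a gene has no UMI the limit is that of 3 counts. Promoter coordinates are those of RefSeq on GRCm38.p6, another build than that of the counts. Seed matches and 3′ words were read from GENCODE vM21 transcripts.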

Additional observations from a re-analysis of the deposited data

How the results depend on the processing

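Of 548 alternative log2 fold changes of the members, 488 kept their direction and side of the threshold, 8 came past it and 52 changed sign, 26 of them with a library left out, none with the gene called in either fit. No call of the comparison of gates was lost, where 4655 to 8110 genes were called with a library left out. Between genotypes, calls in all cells were 12 by DESeq2 and 0 to 3 with a library left out (3 without Pax7Cre replicate 2). In Myog+ cells they were 11 by DESeq2, 101 without the filter, 106 with the replicate block and 2 to 428 with a library left out (269, 95, 2 and 428 without Pax7Cre replicates 1 and 2 and miR-501KO replicates 1 and 2). In Pax7+ Myog- cells they were 16 by DESeq2, 14 at 2000 UMIs, 12 at 10% mitochondrial UMIs, 1 with unthinned gates, 28 without the filter, 64 with the replicate block, 13 without clusters of 1 library, 13 without the top 5% of cells and 34 to 110 with a library left out (34, 110, 50 and 91). The interaction called 4 by DESeq2, 30 without the filter, 0 with a gate of 2 Myog UMIs, at 2000 UMIs, with unthinned gates, without the replicate block and without clusters of 1 library, and 0 to 3886 with a library left out (47, 24, 0 and 3886). With a library left out, the lone library of its group is assumed to vary like the others. With the numbers crossed, an alternative added after seeing the data like the removal of cluster 19 and of the top Myh1 cell, 5 genes were called in Pax7+ Myog- cells. The block changed 1 call of a member, Myh1 in Pax7+ Myog- cells (1.20). The causes were not tested.

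The developmental share difference turned to 1.34 at 2000 UMIs, 0.858 at 10% mitochondrial UMIs, 2.47 with unthinned gates, 0.565 without the top 5% of cells and 0.599 without the top Myh1 cell, and ran from -4.39 to 0.172 with a library left out. Signs changed in all cells for Myh8 (0.19) and Myh4 (0.36) without the top 5%, Myh2 (0.27) and Myh4 (0.20) without cluster 19, and Myh1 at 10% mitochondrial UMIs (-0.44) and without its top cell (-0.33). In Myog+ cells Myh1 gave -0.46 at 2000 UMIs, -0.28 at 10% mitochondrial UMIs, -0.028 without the top 5% and -0.24 without its top cell, Myh4 -0.077 at 2000 UMIs, -0.74 with unthinned gates and -0.29 without clusters of 1 library, and Myh9 0.00323 by DESeq2, 0.00319 with RLE, and 0.053, 0.00178, 0.13 and 0.029 at 2000 UMIs, 10% mitochondrial UMIs, without clusters of 1 library and without the top 5%. In Pax7+ Myog- cells Myh10 gave 0.029 at 2000 UMIs, and between gates Myh4 gave 1.17 with unthinned gates, not called. The interaction gave 0.18 and 0.17 for Myh3 with unthinned gates and without clusters of 1 library, 0.17 and 0.062 for Myh8 without clusters of 1 library and without the top 5%, and 0.088 for Myh9 without clusters of 1 library.

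With a library left out, values in all cells ran from -0.32 to 0.88 (Myh3), -0.49 to 0.21 (Myh8), -0.27 to 0.76 (Myh1), -1.30 to 0.88 (Myh4) and -0.13 to 0.19 (Myh9). In Myog+ cells they ran from -0.21 to 0.79 (Myh3), -0.024 to 1.88 (Myh1), -0.51 to 2.10 (Myh4) and -0.10 to 0.078 (Myh9), and in Pax7+ Myog- cells from -0.11 to 1.13 (Myh3) and -0.27 to 0.30 (Myh9). Between gates Myh4 ran from -0.81 to 0.21. The interaction ran from -0.36 to 0.0505 (Myh3), -0.34 to 0.00334 (Myh8), -3.71 to 1.28 (Myh7), -1.57 to 0.90 (Myh1), -2.01 to 1.45 (Myh4) and -0.22 to 0.16 (Myh9). A member came past the threshold in Myog+ cells without Pax7Cre replicate 1 (Myh1 1.88, Myh4 2.10) and without miR-501KO replicate 2 (Myh10 -0.67, interaction -0.49), and in Pax7+ Myog- cells without Pax7Cre replicate 2 (Myh1 1.54, Myh4 1.46) and without miR-501KO replicate 2 (Myh1 1.62). Of 144 levels by class under other cluster resolutions 142 moved by less than 1 SD. Depth limits Myh2 and Myh7, with 73 and 180 UMIs in all.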
